A study of Mus musculus with 2 samples.

Results

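The genes described here are the paralogous miR-23, miR-27 and miR-24 clusters of the mouse, measured by microRNA sequencing in newborn stomach. They were chosen by name: the 6 listed genes Mir23a, Mir27a, Mir24-2, Mir23b, Mir27b and Mir3074-1, of 1973 miRNA genes in the deposited tables. Mir24-1, the miR-24 gene of the Mir23b cluster, was read from the reads counted on the strand opposite to Mir3074-1, whose hairpin encloses that of Mir24-1. The series holds 2 libraries of RNA shorter than 30 nucleotides, each from the whole stomach of 1 pup of strain B6NCrl at postnatal day 0. The pups came from 1 dam, their sex was not collected and the labels name no treatment, so the libraries form 1 group and the data hold no contrast between conditions. Spreads and p-values therefore concern these 2 littermates only.

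MicroRNAs are short RNAs cut from a hairpin in a longer transcript, and they lower the output of messenger RNAs that pair with their seed, bases 2 to 8. The hairpins of miR-23, miR-27 and miR-24 lie side by side and are cut from 1 primary transcript, and vertebrates carry this trio in paralogous copies. The a cluster is Mir23a, Mir27a and Mir24-2, and the b cluster is Mir23b, Mir27b and Mir24-1. The best known products are the 3p arms miR-23a-3p, miR-23b-3p, miR-27a-3p, miR-27b-3p and miR-24-3p. Members of this family are found in many tissues, are abundant in endothelial cells and act in the growth of blood vessels, and miR-27 restrains fat cell differentiation. Counts from whole stomach do not tell which cells the reads came from, and fewer cells of a type and less RNA per cell cannot be told apart.

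The mature sequences come from RefSeq (GRCm38.p6), where all 6 genes and Mir24-1 had a hairpin and at least 1 mature sequence. They are printed from the first base to the last with the seed in capitals, and are shown because the bases that separate the paralogs decide whether a read can be given to 1 gene.
miR-23a-3p (Mir23a): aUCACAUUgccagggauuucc
miR-27a-3p (Mir27a): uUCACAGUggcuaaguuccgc
miR-27b-3p (Mir27b): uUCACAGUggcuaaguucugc
miR-24-3p (Mir24-2 and Mir24-1): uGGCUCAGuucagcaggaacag
miR-24-2-5p (Mir24-2): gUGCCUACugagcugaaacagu
miR-24-1-5p (Mir24-1): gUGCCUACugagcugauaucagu
miR-3074-5p (Mir3074-1): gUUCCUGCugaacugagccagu

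The miR-27 paralogs were set apart by 1 base. Counted from the first base of the miRNA, miR-27a-3p and miR-27b-3p shared their first 18 bases and the whole seed UCACAGU, and differed by the substitution C19U. In the RefSeq table no other gene had a mature sequence with that seed. The seed of miR-23a-3p differs from it by the substitution U7G. The 5p arms of miR-27 were less alike, with 8 differences over 22 bases.

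The miR-24 genes could not be told apart by their main product. The 22 bases of miR-24-3p were found whole in 2 hairpins, Mir24-2 and Mir24-1, so a full-length read of it matches both genes. The 5p arms share their first 16 bases and the seed UGCCUAC. Both hairpins are shown with miR-24-3p in capitals.
Mir24-2 hairpin: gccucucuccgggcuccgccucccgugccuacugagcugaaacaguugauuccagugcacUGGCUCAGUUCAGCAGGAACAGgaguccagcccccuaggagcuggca
Mir24-1 hairpin: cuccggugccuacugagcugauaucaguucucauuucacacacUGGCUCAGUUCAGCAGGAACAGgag
The longest stretch that these hairpins have in common was 28 nt, against 20 nt for Mir23a with Mir23b and 20 nt for Mir27a with Mir27b. Reads that mapped to several places were not assigned to a gene in the tables, and their share of the whole table was 26.0% for pup 1 and 25.7% for pup 2. How many of them are miR-24-3p was not tested, so the counts of Mir24-2 and Mir24-1 are those of reads that fitted 1 place and are no measure of miR-24-3p. miR-3074-5p lies on the other strand of the miR-24 hairpins and shares 20 bases with the reverse complement of miR-24-3p. It too was found whole in 2 hairpins, Mir3074-1 and Mir3074-2.

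The clusters sit in different settings of the genome (GRCm38, GENCODE M21). Mir23a (ENSMUSG00000065611.1, chr8:84208518-84208592), Mir27a (ENSMUSG00000065444.1, chr8:84208672-84208758) and Mir24-2 (ENSMUSG00000065541.1, chr8:84208815-84208921) lie on the plus strand of chromosome 8 with no annotated host gene. The noncoding RNA Gm26532 begins within the last 2 bases of the Mir24-2 hairpin. The a cluster spans 404 bases, with 79 bases between its first hairpins and 56 before the last.

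The b cluster lies inside a protein-coding gene. Mir23b (ENSMUSG00000065599.1, chr13:63300484-63300557) is in an intron of Aopep, an aminopeptidase gene that GENCODE names 2010111I01Rik, on the plus strand of chromosome 13. Mir27b (ENSMUSG00000065475.1, chr13:63300712-63300784) and Mir24-1 (chr13:63301208-63301275) overlap annotated exons of the same gene. The span from Mir23b to Mir24-1 is 792 bases, with gaps of 154 and 423 bases. Mir3074-1 (ENSMUSG00000092741.1, chr13:63301199-63301283) is on the minus strand, in an intron of Fancc, a gene of the Fanconi anaemia DNA repair pathway. The hairpins of the a cluster had a GC content of 56.0% (Mir23a), 59.8% (Mir27a) and 61.7% (Mir24-2), against 48.6% (Mir23b), 47.9% (Mir27b) and 51.5% (Mir24-1) in the b cluster.

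**Figure D1:**
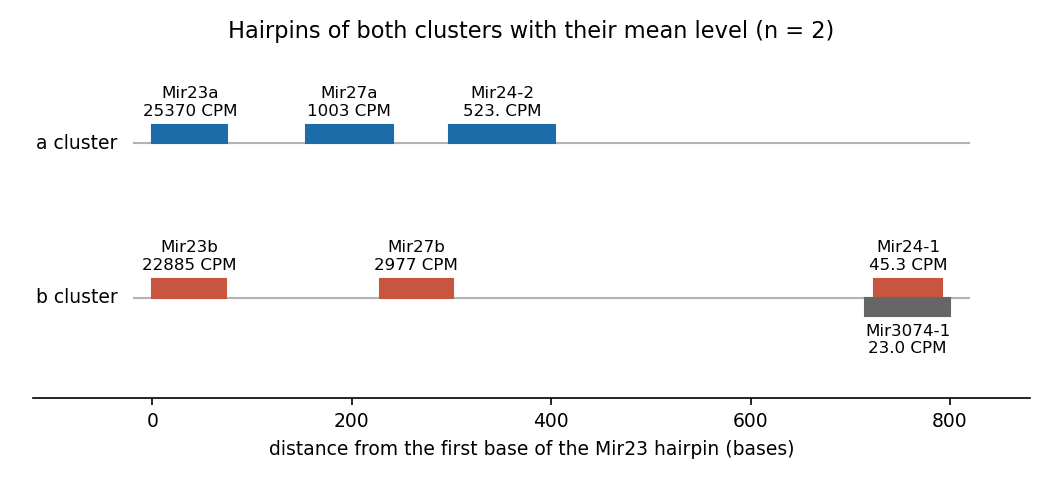
Hairpins of the a cluster (upper) and the b cluster (lower), drawn to scale by their distance in bases from the first base of the Mir23 hairpin, with boxes above the line for the plus strand and below it for the minus strand. The mean level of each gene over both pups is written at its box, and the first hairpin of each cluster has the highest, 25370 CPM for Mir23a and 22885 CPM for Mir23b.

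The library of pup 1 held 4463355 counts on the own strand of a miRNA gene and that of pup 2 held 3454655, and levels are given as counts per 1000000 of these (CPM). A count of 0 allows up to 0.672 CPM in pup 1 and 0.868 CPM in pup 2. Intervals and such limits cover counting error only, since the reads carry no molecular identifiers and cannot be counted as separate molecules. The miRNA markers of the stomach's own layers were present: smooth muscle (Mir143, Mir145a) held 25.6% and 23.9% of the counts in pups 1 and 2, squamous epithelium (Mir203, Mir205) 10.98% and 11.5%, the epithelial miR-200 family 6.11% and 6.60%, the endothelial gene Mir126a 3.56% and 3.44%, and glandular epithelium (Mir192, Mir215, Mir194-1, Mir194-2) 0.816% and 0.769%. The marker lists for leukocytes, erythroid cells, striated muscle, hepatocytes, neurons and pancreatic acinar cells each held at most 0.0565% in either pup. Among reads that fitted 1 place, the neuronal markers Mir124a-1, Mir124a-2, Mir124a-3 and Mir9-2 were at 0. Reads that mapped to several places were not assigned to a gene, so a 0 here does not show that the miRNA was absent.

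The 6 genes together held 5.28% ± 0.0610 (SD, n = 2) of the own-strand counts, almost all of it from Mir23a and Mir23b. The sum was 237505 counts in pup 1, a share of 5.32% with an exact binomial 95% interval from 5.30% to 5.34%, and 180848 counts in pup 2, a share of 5.23% with bounds of 5.21% and 5.26%. Mir23a and Mir23b made up 91.1% of that sum in pup 1 and 91.8% in pup 2. Reads that mapped to several places are not in the sum, and a full-length read of miR-24-3p matches both miR-24 genes. All 6 were detected, that is, had at least 10 counts in each library, against 15.5% of all 1973 genes (305 detected).

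Mir23a had 117033 counts in pup 1 and 84707 in pup 2, or 26221 and 24520 CPM. Mir23b had 99301 counts in pup 1 and 81258 in pup 2, or 22248 and 23521 CPM. The levels of Mir23a were thus above those of Mir23b in each pup, and their values did not overlap across the pups. They stood at ranks 10 (Mir23a) and 11 (Mir23b) among all 1973 genes in both pups. In mean level Mir23a averaged 25370 ± 1203 CPM and Mir23b 22885 ± 900.3 CPM (SD, n = 2 each). The gene next above, Mir26b, stood at 28538 ± 463 CPM and the gene next below, Mir335, at 19056 ± 1183 CPM, and each of these steps exceeded the SD of both genes beside it.

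The miR-27 genes were far lower. Mir27b had 13805 counts in pup 1 and 9881 in pup 2, or 3093 and 2860 CPM, with a mean of 2977 ± 165 CPM. Mir27a had 4864 counts in pup 1 and 3165 in pup 2, or 1090 and 916 CPM, with a mean of 1003 ± 123 CPM. Their values were well apart, with both pups higher in Mir27b than either was in Mir27a. Mir27b ranked 42 in pup 1 and 45 in pup 2, and Mir27a ranked 81 and 88. In mean level Mir27b could not be separated from its neighbours Mir141 (3006 ± 379 CPM) and Mir10b (2957 ± 242 CPM), nor Mir27a from Mir872 (1091 ± 6.37 CPM) and Mir296 (1001 ± 61.3 CPM), since each difference was within the SD of at least 1 of the genes.

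The reads that could be given to a miR-24 gene were fewer still. Mir24-2 had 2401 counts in pup 1 and 1756 in pup 2, or 538 and 508 CPM, with a mean of 523 ± 20.96 CPM. It ranked 106 and 111, and differed from its neighbours Mir34a (548 ± 89.0 CPM) and Mir676 (517 ± 5.55 CPM) by no more than the SD of at least 1 gene of the pair. At Mir24-1 235 reads were counted in pup 1 and 131 in pup 2, equal to 52.7 CPM (exact 95% interval 46.1 to 59.8) and 37.9 CPM (31.7 to 45.0), with a mean of 45.3 ± 10.4 CPM. The gap between the miR-24 genes was far larger than the SD of either.

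Mir3074-1 was the lowest of the listed genes in reads that fitted 1 place. It had 101 counts on its own strand in pup 1 and 81 in pup 2, or 22.6 CPM (exact 95% interval 18.4 to 27.5) and 23.4 CPM (18.6 to 29.1), with ranks of 228 and 231. Both intervals are far above the limit that a count of 0 allows. Its neighbours in mean level, Mir3072 at 23.1 ± 7.02 CPM and Mir7j at 22.6 ± 0.0357 CPM, lay closer to its mean of 23.0 ± 0.578 CPM than the SD of at least 1 of the genes in each pair. A full-length read of miR-3074-5p matches 2 hairpins, Mir3074-1 and Mir3074-2. The level and ranks of Mir3074-1 are therefore no measure of miR-3074-5p.

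**Figure D2:**
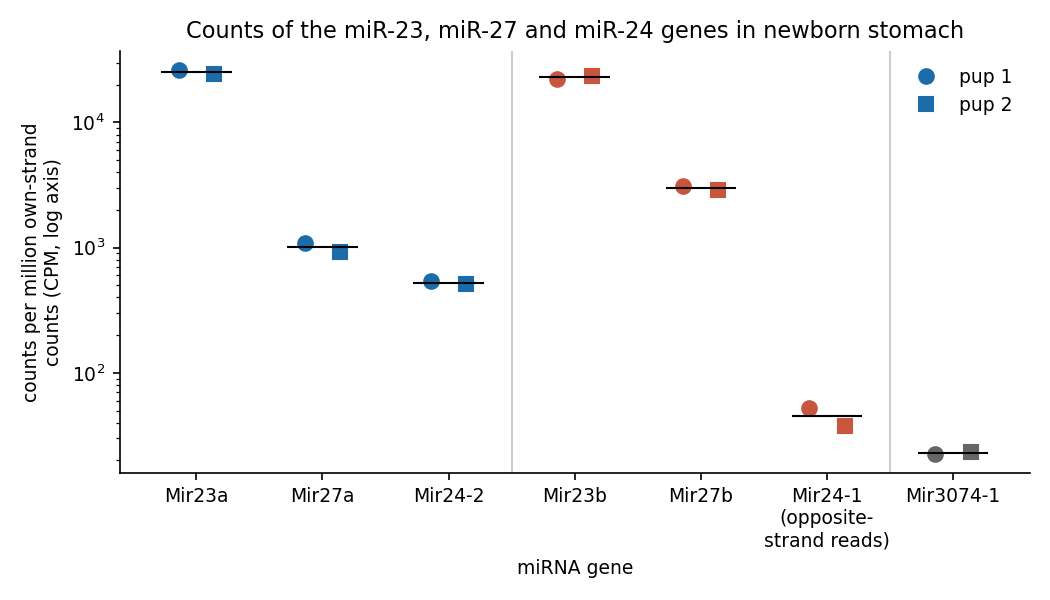
Level of each gene in CPM on a log axis, for pup 1 (circle) and pup 2 (square), with the mean as a line; the a cluster is on the left, the b cluster in the middle and Mir3074-1 on the right, and the value at Mir24-1 is that of the reads opposite to Mir3074-1. Mir23a and Mir23b lie between 22248 and 26221 CPM, while Mir27a lies near 1003 CPM and Mir27b near 2977 CPM.

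**Figure D3:**
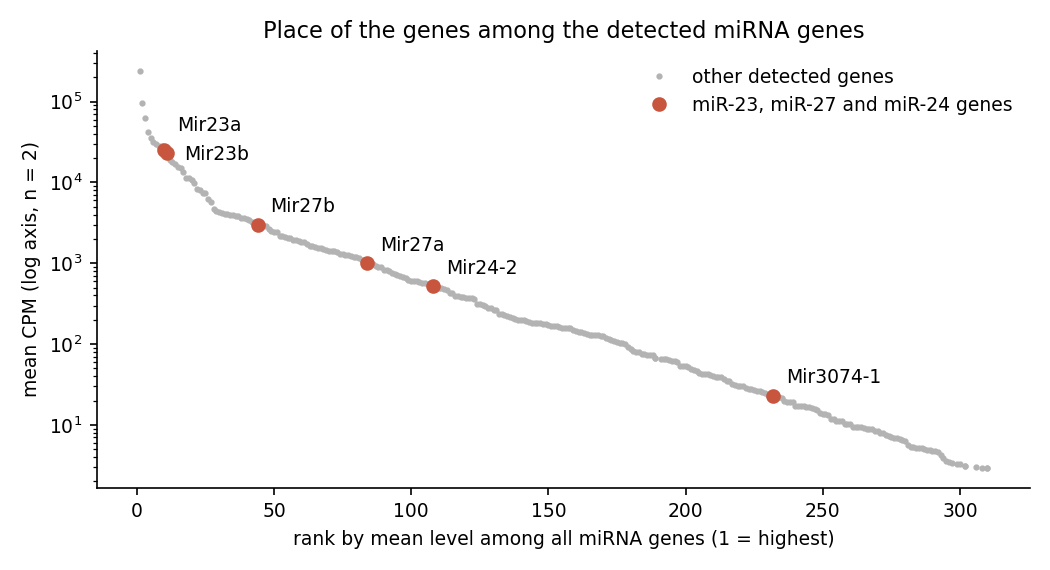
Mean CPM over both pups on a log axis against rank by mean level, for the 305 detected genes, with the 6 listed genes in colour. Mir23a and Mir23b are at ranks 10 and 11, Mir27b at 44, Mir27a at 84, Mir24-2 at 108 and Mir3074-1 at 232.

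The paralogs did not differ in the same direction. Ratios were taken within each library, where library size cancels, and are given as log2 with the SD over the pups. They compare reads that fitted 1 place. How many reads matched both paralogs and went unassigned was not tested. Mir23a exceeded Mir23b slightly, by 0.24 in pup 1 and 0.060 in pup 2 on the log2 scale, a mean of 0.15 ± 0.13 (SD, n = 2) or 1.11-fold. Mir27a was below Mir27b in both pups, with log2 ratios of -1.50 in pup 1 and -1.64 in pup 2 and a mean of -1.57 ± 0.097, a ratio of 0.336. The smallest p that an exact permutation over 2 libraries allows is 0.5, and the ratios are therefore set against their SD only.

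The miR-23 ratio barely exceeded its spread and the miR-27 ratio exceeded its spread by a wide margin. Of the reads of both miR-23 genes, Mir23a held 54.1% in pup 1, with exact 95% bounds of 53.9% and 54.3%, and 51.0% in pup 2, with bounds of 50.8% and 51.3%. Of the reads of both miR-27 genes, Mir27a held 26.1% in pup 1, with bounds of 25.4% and 26.7%, and 24.3% in pup 2, with bounds of 23.5% and 25.01%. The counting intervals of Mir23a did not overlap between the pups. Among 166 pairs of detected genes that share a seed in the RefSeq table, the median absolute log2 ratio was 2.54 (quartiles 1.09 and 4.76), and 59 pairs had a smaller ratio than Mir27a and Mir27b. Mir23a and Mir23b are not among these pairs, because only the 5p arm of Mir23b entered the seed comparison. Their absence says nothing about whether their 3p arms share a seed. These pairs share genes and libraries, and they describe the background without a test. Pairs with the same mature sequence were not left out, and reads that mapped to several places are in none of these counts. The median is therefore no measure of differences between mature miRNAs.

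Summed over miR-23 and miR-27, the clusters held nearly equal counts. The log2 ratio of Mir23a plus Mir27a over Mir23b plus Mir27b was 0.11 in pup 1 and -0.053 in pup 2, with a mean of 0.028 ± 0.11. The sign differed between the pups, so no difference in summed counts was larger than the spread. This sum follows miR-23, which outnumbers miR-27 in both clusters.

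Within each cluster, miR-23 stood above miR-27, and the step was larger in the a cluster. Mir23a exceeded Mir27a 24.1-fold in pup 1 and 26.8-fold in pup 2, or by 4.67 ± 0.11 on the log2 scale. Mir23b exceeded Mir27b 7.19-fold in pup 1 and 8.22-fold in pup 2, or by 2.94 ± 0.14. The a-cluster step was thus 3.35 times the b-cluster step in pup 1 and 3.25 times in pup 2, a log2 difference of 1.72 ± 0.028 that was chosen for report after its values were seen. The spread between the pups was smaller for this quantity than for any of the gene ratios from which it is made. With 2 libraries and a quantity chosen after its values were seen, that small spread is no evidence of stability.

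Both steps can be set against other hairpins that lie close together. Over 307 pairs of detected genes on the same strand within 10000 bases of each other, from 138 genes, the median absolute log2 ratio was 2.56 (quartiles 1.26 and 4.63). Of these pairs 230 had a smaller ratio than Mir23a and Mir27a, and 167 had a smaller ratio than Mir23b and Mir27b. By these counts the step of the b cluster was near the median of neighbouring hairpins, and that of the a cluster was just past the upper quartile. The neighbouring pairs share genes and libraries, include the pairs of both clusters, and were compared without a test. Reads that mapped to several places are in none of their counts, so this median is no measure of differences between mature miRNAs.

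The steps down to miR-24 were measured on reads that fitted 1 place. Mir27a exceeded Mir24-2 2.03-fold in pup 1 and 1.80-fold in pup 2, or by 0.93 ± 0.12 on the log2 scale. Mir27b exceeded the Mir24-1 reads 58.7-fold and 75.4-fold, or by 6.06 ± 0.26. Mir24-2 exceeded Mir24-1 10.2-fold in pup 1 and 13.4-fold in pup 2, or by 3.55 ± 0.28. Because the hairpins of both miR-24 genes hold the same miR-24-3p, these ratios compare the assignable reads and not the mature miRNA.

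In shares of the cluster, Mir23a held 94.3% ± 0.251, Mir27a 3.72% ± 0.270 and Mir24-2 1.95% ± 0.0195 of the a-cluster counts. In the b cluster Mir23b held 88.3% ± 1.00, Mir27b 11.5% ± 0.957 and the Mir24-1 reads 0.175% ± 0.0451. All these shares are of reads that fitted 1 place, and a full-length read of miR-24-3p matches both miR-24 genes. They are therefore no measure of the part that miR-24-3p has in the output of either cluster. Hairpins differ in length, from 68 nt (Mir24-1) to 107 nt (Mir24-2), and counts are per gene, since each read covers a mature miRNA and not the hairpin. Divided by hairpin length, an alternative added after seeing the data, the mean log2 ratio of Mir27a over Mir27b was -1.83 and that of Mir23a over Mir23b 0.13. The lengths (87 nt for Mir27a, 73 nt for Mir27b, 75 nt for Mir23a, 74 nt for Mir23b) differ too little to turn either sign. The kept directions are therefore no support.

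**Figure D4:**
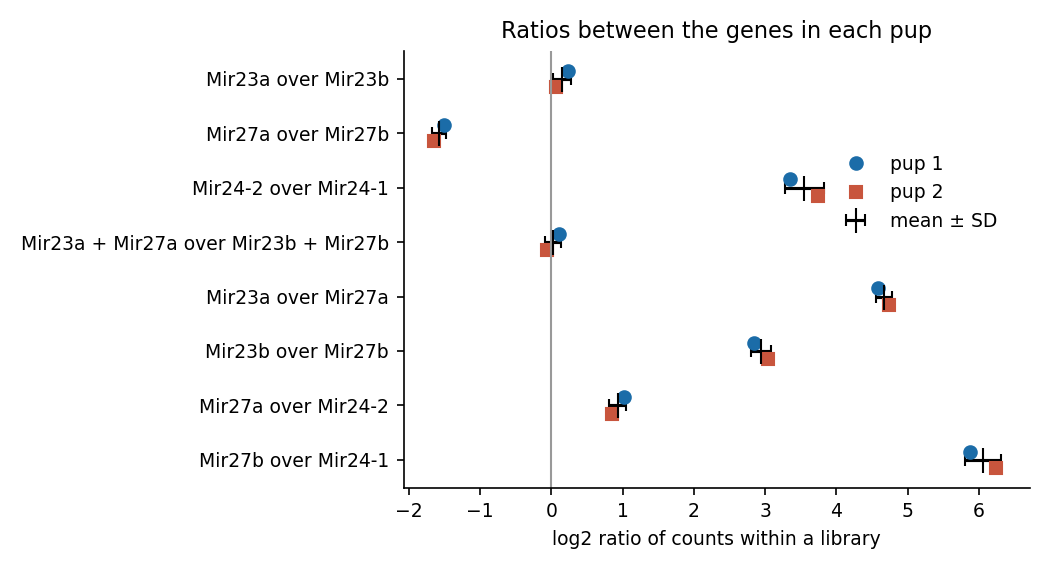
Log2 ratio of counts within each library for pairs of genes, in pup 1 (circle) and pup 2 (square), with mean and SD (n = 2) in black and a line at 0 for equal counts. Mir23a over Mir23b and the sum of the a cluster over the b cluster lie near 0, at 0.15 and 0.028, whereas Mir27a over Mir27b lies at -1.57 and the ratios within the clusters lie between 0.93 and 6.06.

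Reads on the strand opposite to a listed gene were found at 1 of the 6. No read was counted opposite to Mir23a, Mir27a, Mir24-2, Mir23b or Mir27b in either pup. For Mir23a, 0 of 117033 reads in pup 1 allows a share of up to 0.00256%, and for Mir24-2, 0 of 2401 reads allows up to 0.125%. The strand opposite to Mir24-2 is that of Mir3074-2, so the reads of the miR-3074 hairpins that fitted 1 place were seen at the b cluster and not at the a cluster.

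At Mir3074-1 the opposite strand held the larger part. It held 235 of 336 reads in pup 1, or 69.9% with exact 95% bounds of 64.7% and 74.8%, and 131 of 212 reads in pup 2, or 61.8% with bounds of 54.9% and 68.4%. The intervals of the pups overlap. Full-length reads of miR-24-3p and of miR-3074-5p each match 2 hairpins. This split is therefore of reads that fitted 1 place and is no measure of the balance between the mature miRNAs. Of 315 genes with at least 10 counts on both strands together in each library, 286 (90.8%) had no opposite-strand read in either pup and 11 (3.49%) had more reads on the opposite strand than on their own in both pups. Mir3074-1 was 1 of 3 genes with at least 10 counts on each strand in each library. The others, named after their values were seen, were Mir126a with 28 and 26 opposite-strand reads and Mir203 with 11 and 12, beside own-strand counts of 118940 or more.

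Pup 1 was compared with pup 2 gene by gene with a two-sided exact binomial test on TMM-scaled library sizes, with Benjamini-Hochberg adjustment over the 305 detected genes, and calls needed an adjusted p under 0.05 together with a ratio of at least 1.5. None of the 6 listed genes was called, where 2.95% of all detected genes were, so a count of 0 among 6 is no result about these genes. The median absolute log2 ratio of all detected genes was 0.172, and Mir27a, Mir27b, Mir23a and Mir24-2 lay above it. The largest difference was that of Mir27a, at 0.35 for pup 1 over pup 2 on the log2 scale, with exact 95% bounds of 0.29 and 0.42 and an adjusted p of 2.9e-26 in the exact binomial test. Mir27b had a log2 ratio of 0.22 (0.18 to 0.25), Mir23a 0.20 (0.19 to 0.21), Mir24-2 0.18 (0.095 to 0.27) and Mir23b 0.023 (0.0094 to 0.036). For Mir3074-1 the ratio was 0.052 (-0.38 to 0.49), and a difference within that interval was not detectable at its low counts.

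By that test 5 of the 6 had a p under 0.05, unadjusted and adjusted, whatever their ratio, and 52.1% of all detected genes had such an adjusted p. The test covers counting error only and compares these libraries. All 6 ratios were above 0 after TMM scaling, against 47.5% of the detected genes, but scaled by total counts Mir23b (-0.080) and Mir3074-1 (-0.051) turned below 0. Mir24-2 also lost its p under 0.05 with that scaling, at a log2 ratio of 0.082 and an adjusted p of 0.13 in the exact binomial test. A common dispersion fitted by edgeR corresponds to a coefficient of variation of 11.4% between the pups. With it as the error, no listed gene had an unadjusted p under 0.05, where 16 of the 305 genes did, but the dispersion comes from the same 2 libraries that are compared, so this says nothing about how these genes vary between pups.

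**Figure D5:**
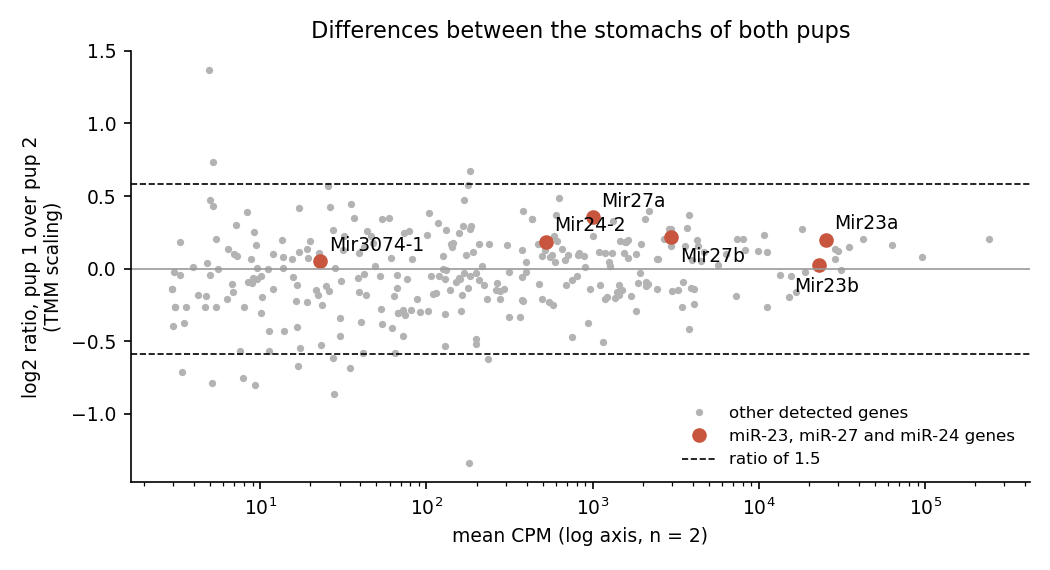
Log2 ratio of pup 1 over pup 2 after TMM scaling against mean CPM on a log axis, for the 305 detected genes, with dashed lines at a ratio of 1.5 in either direction. The 6 listed genes lie between 0.023 (Mir23b) and 0.35 (Mir27a), inside the dashed lines.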

How the data were processed

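For each library the authors deposited a table of raw counts of reads per miRNA gene, in total and by strand, and the accompanying description files name the assembly mm10 and annotation release M4. No source used here names the aligner or the counter. The strand column with the larger total (97.7% and 97.8% of gene counts) gave the own-strand counts. Reads that name no gene stayed out of totals: 8.70% and 8.94% of all reads were unmapped, and 1.78% and 1.70% lay outside miRNA genes. Of 1973 identifiers, 1894 matched GENCODE M21 without their version. Sequences came from RefSeq, which had an entry for 284 of the 305 detected genes. TMM came from edgeR 4.0.16 and alternative size factors from DESeq2 1.42.0 (R 4.3.3); other steps used Python 3.11.15 and scipy 1.17.1. The genes named beside the 6 were their neighbours in level, genes with the same seed and cell type markers. The genes, lists and tests were chosen with earlier results of these data known. With 2 libraries no gene could be ranked by likeness of pattern.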

Additional observations from a re-analysis of the deposited data

How the results depend on the processing

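The summed share of the 6 genes was 5.28% of own-strand counts, 3.28% of all reads in the tables, 6.96% without Mir143 in the total and 5.17% without regard to strand. Scaled by TMM library sizes it was 5.28% ± 0.328, and by DESeq2 size factors 5.26% ± 0.456 (SD, n = 2). The small SD of 0.0610 therefore belongs to scaling by total own-strand counts. Ratios within a library had the same direction in both pups, except the sum of the a cluster over the b cluster, which ran from -0.053 to 0.11 on the log2 scale. Leaving a pup out only returns the value of the other pup, so it adds no check. Per base of hairpin, a setting added after seeing the data, that sum was -0.0016, Mir27a over Mir27b was -1.83, Mir24-2 over Mir24-1 was 2.89, Mir23a over Mir27a was 4.88, Mir27a over Mir24-2 was 1.23 and the a-cluster step over the b-cluster step was 1.96. Over all detected genes the pup comparison called 9, against 16 with total counts as the scale, where none of the 6 genes was called either. In edgeR's exact test with a common dispersion taken from the same 2 libraries 1 gene was called, which says nothing about the stability of the calls. With total counts the log2 pup ratio changed sign for Mir23b (-0.080) and Mir3074-1 (-0.051), and Mir24-2 (0.082) no longer had an adjusted p under 0.05. Scaling by total counts shifted the median log2 pup ratio of all detected genes to -0.13, against -0.024 with TMM. The ratios of Mir24-1 were not run without regard to strand, because those reads come from 1 strand column. Low counts limit Mir3074-1 and Mir24-1, at between 81 and 235. These are reads that fitted 1 place, and full-length reads of miR-3074-5p and of miR-24-3p each match 2 hairpins. No paired analysis was possible because the libraries form 1 group.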
